A study of Mus musculus with 10 samples.

Results

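Among cultures of 3T3-L1 adipocytes that received LA, those numbered replicate 1 were compared with those numbered replicates 2, 3 and 4. The set held 8 of the 10 arrays of the series: 2 LA arrays of replicate 1, 1 at 8 h and 1 at 12 h, and 6 LA arrays of replicates 2 to 4, 3 at each time. Replicate 1 was selected on the expression values themselves, because its arrays were seen to stand apart over all genes. The size of its difference is therefore given as a description with no test. The set was fixed by titles, and the same values also supplied the 6 marker genes Atf3, Trib3, Hmox1, Egr3, Cops2 and Uba3.

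The study set c9t11 CLA, a conjugated linoleic acid, against LA, the usual short name of linoleic acid, in this mouse fibroblast line that can be turned into fat-storing cells. Total RNA was taken 8 h and 12 h into treatment and hybridised to Affymetrix arrays. All 8 LA arrays carry the control treatment, in 2 groups of 4, LA at 8 h and LA at 12 h. The 2 CLA arrays, 1 at each time and both numbered replicate 1, entered the scaling and no comparison. Dose, passage and day of differentiation are not given in the labels. The cultures come from 1 cell line, and the labels call the replicates biological without saying whether the arrays of 1 number share a culture or a day. With the number as the unit, replicate 1 is 1 unit against 3, and the number of arrays limits the precision.

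Several pathways touched here are well described. When amino acids are short or unfolded proteins gather in the endoplasmic reticulum, kinases phosphorylate the initiation factor eIF2, and translation of the factor ATF4 goes up; ATF4 and its partner CHOP then switch on genes of amino acid supply and stress adaptation. NRF2, held back by KEAP1, drives antioxidant genes. AP-1 and EGR factors are immediate early genes that answer growth factors and stress within minutes. The COP9 signalosome removes the ubiquitin-like protein NEDD8 from cullins, while the E1 enzyme of NAE1 and UBA3 starts its attachment, and together they set the activity of cullin ubiquitin ligases.

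The promoters of 4 stress genes that lay higher in replicate 1 are shown first. They were picked after the search, 3 of them for holding a motif of the ATF4 and CREB families, so they do not show how common such matches are. Each line gives the 250 bases before the start of transcription, 5′ to 3′ on the gene's strand, from RefSeq on GRCm38.p6. Capitals mark a match on either strand to the C/EBP-ATF response element core (TGATGNAAN), the CRE core (TGACGTNN), the antioxidant response element (TGACNNNGC) or the TATA box (TATAAA).
Atf3, chr1:191183334-191183583, minus strand: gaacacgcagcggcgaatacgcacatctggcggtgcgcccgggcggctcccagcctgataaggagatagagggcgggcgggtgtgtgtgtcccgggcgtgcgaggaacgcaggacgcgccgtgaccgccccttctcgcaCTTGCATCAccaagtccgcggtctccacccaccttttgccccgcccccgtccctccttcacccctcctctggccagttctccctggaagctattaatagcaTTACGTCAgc
Chac1, chr2:119350992-119351241, plus strand: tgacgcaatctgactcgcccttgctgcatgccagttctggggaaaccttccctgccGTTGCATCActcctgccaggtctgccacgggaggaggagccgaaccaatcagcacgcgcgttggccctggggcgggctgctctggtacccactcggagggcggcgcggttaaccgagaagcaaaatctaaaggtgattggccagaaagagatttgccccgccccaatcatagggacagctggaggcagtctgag
Ppp1r15a, chr7:45526269-45526518, minus strand: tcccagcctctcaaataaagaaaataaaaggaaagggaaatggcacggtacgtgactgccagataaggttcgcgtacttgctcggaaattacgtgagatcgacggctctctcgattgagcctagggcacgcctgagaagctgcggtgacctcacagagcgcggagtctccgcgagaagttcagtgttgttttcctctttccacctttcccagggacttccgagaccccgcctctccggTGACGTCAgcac
Trib3, chr2:152344061-152344310, minus strand: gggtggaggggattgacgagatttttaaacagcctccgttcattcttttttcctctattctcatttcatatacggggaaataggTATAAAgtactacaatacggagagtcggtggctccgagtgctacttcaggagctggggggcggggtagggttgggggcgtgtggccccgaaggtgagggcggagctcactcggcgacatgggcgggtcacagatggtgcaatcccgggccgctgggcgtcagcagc

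Atf3 held 1 response element core and 1 CRE core, Chac1 held 1 response element core, and Ppp1r15a held a palindromic CRE that counts as a match on both strands. Trib3 held a TATA box alone, and Gclm, not shown, 1 antioxidant element. None of the 4 motifs was found in the windows of Ddit3, Atf5 and Sqstm1, which also lay higher, or in those of Cops2 and Uba3, which lay lower. A match is a description of the letters only. Over all 32851 promoters of the table, 3.44% held the response element core, 6.38% the CRE core, 10.2% the antioxidant element and 12.4% the TATA box, and no 2 different motifs overlapped in the promoters shown. Among tested genes with a promoter, the core was found in 2.45% of 1427 genes higher in replicate 1, 1.32% of 1359 genes lower in it and 1.83% of all 8902. The antioxidant element was found in 12.3%, 11.6% and 12.1%, and the CRE core in 8.83%, 11.6% and 10.1%.

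Arrays that stood apart are described before the results. As deposited, the 75th percentile of intensity was 26.4 and 37.4 in the replicate 1 arrays and 54.4 to 76.8 in the other 6, with no overlap. Transcripts of BioB and BioC, bacterial controls added to the hybridisation mix and not made by the cells, gave a BioC over BioB intensity ratio of 1.29 and 1.17 in replicate 1 against 3.12 to 3.95 in replicates 2 to 4. The 2 CLA arrays, also numbered replicate 1, gave 1.31 and 1.36. The ratio of BioD to BioB overlapped (11.3 to 11.6 against 10.5 to 12.1). Array preparation and culture number therefore cannot be told apart. The actin 3′ over 5′ ratio, a control of RNA quality, overlapped between the groups. It was 1.62 and 1.67 in replicate 1 and 1.45 to 5.67 in the others, or at most 2.60 without replicate 4 at 12 h. Replicate 4 at 12 h stood apart by that measure, with actin at 5.67 and Gapdh at 1.42 (others 0.81 to 0.92). Values without replicate 4 are therefore given for some genes and lists, and a gene with none given may still depend on it.

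**Figure D1:**
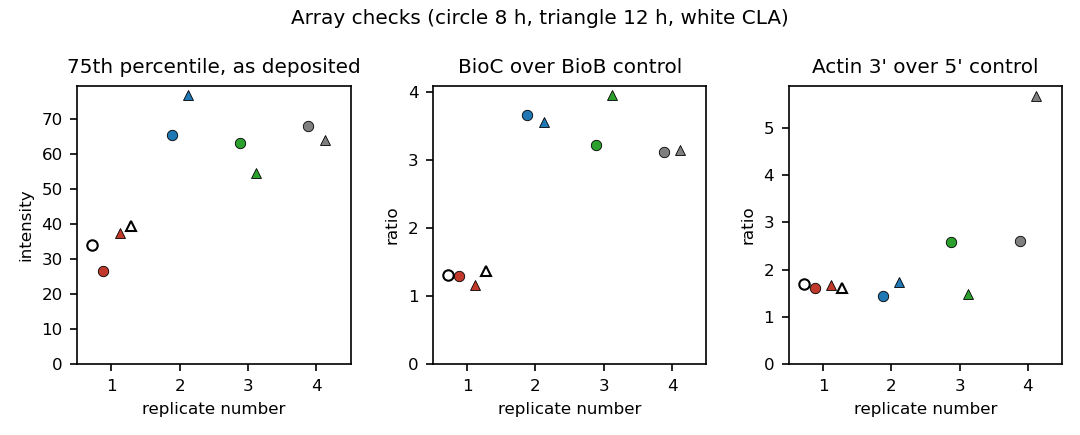
Each point is 1 array, by replicate number, with LA arrays in colour and CLA arrays in white; the panels show the 75th percentile of deposited intensity, the intensity ratio of the BioC and BioB controls, and the actin 3′ over 5′ intensity ratio. The replicate 1 arrays lie below all others in the first 2 panels (26.4 and 37.4 against 54.4 to 76.8; 1.29 and 1.17 against 3.12 to 3.95), while replicate 4 at 12 h stands out in the last at 5.67.

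The label of the cells was read against marker genes. None of the 22 adipocyte genes measured lay at the floor in all 8 LA arrays, and their summed normalised intensity overlapped between the groups, at 63667 and 67849 in replicate 1 and 44136 to 66332 in replicates 2 to 4. The 17 preadipocyte and fibroblast markers measured summed to 6904 and 8703 in replicate 1 and to 9167 to 17914 in the others, with no overlap. In these bulk samples fewer cells of a type and less RNA per cell cannot be told apart. Of 8 macrophage and leukocyte markers, Itgam, Lyz2 and Ptprc lay at the floor in all 8 LA arrays and the sums overlapped (303 to 314 against 160 to 408). Of 6 endothelial markers, 5 lay at the floor in all 8. Of 9 muscle and brown adipocyte markers, Ucp1, Myog and Myod1 lay at the floor in all 8, and the sums were 363 to 365 against 128 to 232. The part of these markers in the differences below was not tested.

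Levels below are log2 values of quantile-normalised intensity, raised to a floor of 3.84 (intensity 14.3) below which values have no order. A difference is replicate 1 less replicates 2 to 4, averaged over both times. Its SE comes from limma with each replicate number as 1 unit (n = 1 against 3), so it carries the spread of replicates 2 to 4 only. A gene is called apart when the difference is at least 1 on the log2 scale and replicate 1 lies beyond all 3 other LA arrays at each time. Of 10916 genes bright enough to be tested, 1738 were apart and higher (15.9%) and 1688 apart and lower (15.5%). These shares belong to the contrast that chose replicate 1. At a difference of at least 2, 112 were higher and 464 lower. The split depends on the scaling: it was 157 higher to 3511 lower on the deposited scaling and 2386 to 1444 after scaling to the 75th percentile, where the median of all genes moved from 0.18 to -0.53 and to 0.36. Of 146 genes named by rule, 75 had several bright probe sets, and in 9 of these the probe sets lay on both sides of 0. In others the sign held but another probe set gave a smaller size, and such values are given for some genes only. Of the 29 gene lists with a median in both, 16 lay above 0 here and below 0 on the deposited scaling, and 14 of the 16 stayed above the median of all genes there. Counts were near the main ones without replicate 4, with 1591 higher and 1573 lower.

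Other splits by replicate number gave fewer genes, although fewer arrays have to be passed in them and the rule is easier to meet. Replicate 2 against replicates 3 and 4 gave 429 genes higher (3.93%) and 320 lower (2.93%). Replicate 4 against replicate 3 gave 340 higher (3.11%) and 541 lower (4.96%). Once time means had been taken out, the leading axis of variation held 62.6% of the variance. The replicate 1 arrays scored 82.5 and 78.5 on it and the other 6 from -52.7 to -1.53. The differences at 8 h and at 12 h share no array, and across genes they correlated at 0.855. In the 7843 genes with no LA array at the floor the correlation was 0.899. Of the genes higher by at least 1 at a time, 1289 were so at both, 62.6% of those at 8 h and 64.5% of those at 12 h. Of those lower, 1421 were so at both, 76.1% and 80.9%. Replicate 1 was chosen because its arrays stood apart in these same values. The axis scores and the agreement of the 2 times therefore describe that choice and add no independent support.

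**Figure D2:**
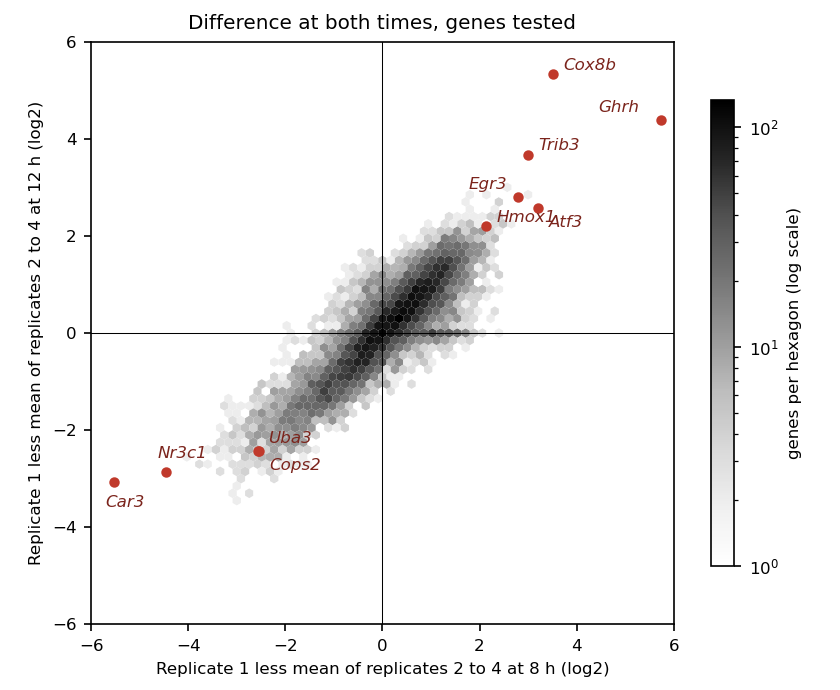
Shading shows the number of tested genes by their difference at 8 h (horizontal, log2) and at 12 h (vertical, log2), with 10 named genes in red. The cloud follows the diagonal (correlation 0.855 across genes), and the named genes lie at its ends, Ghrh and Cox8b high and Car3 and Nr3c1 low.

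The 4 markers that lay higher belong to stress and immediate early programmes. Atf3 (chr1:191170296-191183333), a stress-induced repressor and activator of the ATF family, was at 7.19 and 6.48 in replicate 1 at 8 h and 12 h. In replicates 2 to 4 it ranged from 3.84 (median 3.84) to 4.27, at the floor in 4 of 6 arrays. The groups did not overlap, and the difference of 2.89 (SE 0.14) depends on the floor: it was 2.0 with a floor 2 times as high and 3.49 with 1 of 0.5 times the size. Trib3 (chr2:152337425-152344060), a pseudokinase that is a target of ATF4 and CHOP and restrains AKT, was at 9.76 and 10.02. Replicates 2 to 4 ran from 4.27 (median 6.94) to 7.50, with the lowest in replicate 4 at 12 h. Its difference was 3.34 (SE 1.01), or 2.70 without replicate 4, and again the groups did not overlap.

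Hmox1 (chr8:75093618-75100593), the heme oxygenase and a classical NRF2 target, was at 10.56 and 10.04 against 7.21 to 8.85 with a median of 8.15. Both replicate 1 arrays lay above all others, by 2.17 (SE 0.28) on average. Egr3 (chr14:70077317-70082613), an immediate early zinc finger factor, was at 6.75 and 6.63, while 5 of the 6 other arrays lay at the floor and the highest was 4.17. That gave a difference of 2.80 (SE 0.13), but the other bright probe set of Egr3 gave -0.32, and the mean of its probe sets gave 1.24, so its direction rests on the probe set. The 2 CLA arrays stood near replicate 1, at 7.57 and 6.44 for Atf3, 9.87 and 9.90 for Trib3, 10.63 and 10.07 for Hmox1, and 7.02 and 5.51 for Egr3.

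The 2 markers that lay lower belong to the control of cullins by NEDD8. Cops2 (chr2:125830302-125859082), a scaffold subunit of the COP9 signalosome, was at 6.83 and 6.99 in replicate 1 and between 9.28 and 9.57 (median 9.37) elsewhere. No array of replicates 2 to 4 came within 2 log2 units of it, and the difference was -2.49 (SE 0.19). Uba3 (chr6:97183632-97205647), the catalytic subunit of the NEDD8-activating enzyme, was at 6.51 and 6.85 against 8.88 to 9.44 (median 9.18), a difference of -2.50 (SE 0.21). Both kept their sign in every bright probe set, from -2.99 to -2.49 for Cops2 and from -2.50 to -2.29 for Uba3. In the CLA arrays Cops2 was at 6.40 and 7.36 and Uba3 at 6.26 and 7.21.

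**Figure D3:**
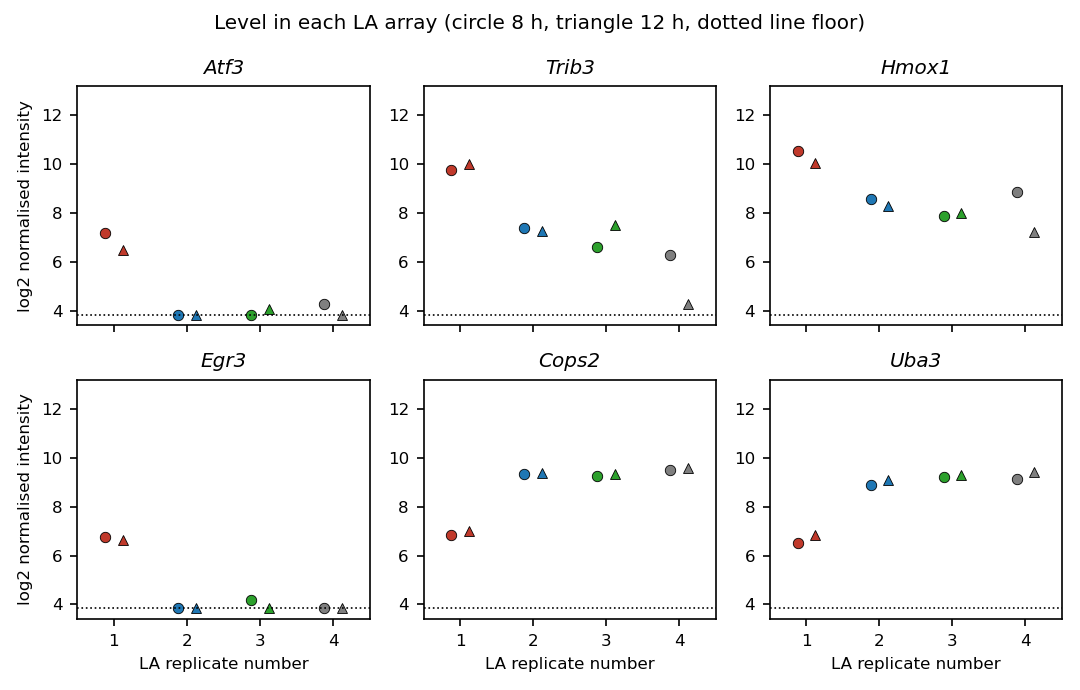
Log2 normalised intensity of the 6 marker genes in each LA array by replicate number, circles for 8 h and triangles for 12 h; the dotted line is the floor of 3.84. Atf3 stands at 7.19 and 6.48 in replicate 1 with the others at most 4.27, and Cops2 stands at 6.83 and 6.99 with the others at 9.28 or more.

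Whether the step from 8 h to 12 h differed in replicate 1 is a contrast that its choice did not use, and it was tested with limma as an interaction of replicate 1 and time. The spread came from replicates 2 to 4, and replicate 1, with 1 array a time, was taken to share it. None of the 6 markers passed: the step of Atf3 differed by -0.64 (SE 0.31) from that of replicates 2 to 4 with an adjusted p of 0.945, and the other 5 had adjusted p-values of 1, with estimates from -0.00 for Egr3 to 0.67 for Trib3. Over all genes limma called 400 (3.66%), 99 with the higher and 301 with the lower step. Of the 400, 260 had all 6 arrays of replicates 2 to 4 at the floor, where the spread is 0 by construction, and 5 (4 of those called with the replicate block) had none there. Refitted alone, an alternative added after seeing the data, the 8592 genes with none of those 6 arrays at the floor gave 0 calls, with 88 at an unadjusted p under 0.05. Hrct1, for instance, was at the floor at 8 h and at 6.01 at 12 h in replicate 1 and at most 3.85 in replicates 2 to 4. Its step differed by 2.17 (SE 0.06, adjusted p = 0.000145 with limma). Fndc1, a fibronectin domain protein, went the other way, from 6.03 to the floor, by -2.19 (SE 0.06, adjusted p = 0.000145).

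In the list of ATF4 and CHOP stress regulators, 10 of 23 tested members were apart and higher (43.5%) and 2 apart and lower (8.70%). The shares over all genes were 15.9% and 15.5%. The median difference was 0.84 beside 0.18 for all genes. On the deposited scaling the median was -0.03 beside -0.53 for all genes. The members had a median span of 10.1 kb, beside 23.0 kb for all genes. Of all tested genes of 9.8 to 22.99 kb, 17.8% were higher and 10.65% lower, and of shorter ones 24.6% and 4.59%. The part of span in the list's shares was not tested. Chac1, which degrades glutathione and is a target of ATF4, was at 9.64 and 9.32 against 5.89 to 7.14 (median 6.68), a difference of 2.89 (SE 0.23). Ppp1r15a, the phosphatase subunit that reverses eIF2 phosphorylation, was at 8.03 and 7.93 against 4.72 to 6.30 (median 5.88). Its difference of 2.33 had an SE of 0.71, since replicate 4 lay lowest at both times. In both genes the groups did not overlap. Atf4 itself differed by 1.11, Atf5 by 1.98 and Ddit3, which encodes CHOP, by 1.58, all apart. The 2 members apart and lower were kinases of eIF2, Eif2ak2 (-1.30) and Eif2ak4 (-1.32). Fgf21 was too dim to be tested.

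Genes of amino acid supply were read in 3 lists. Of 14 serine, asparagine and proline synthesis genes, 2 were apart and higher (14.3%, near the 15.9% of all genes) and 0 lower. The median of 0.61 became 0.33 without replicate 4 and -0.22 on the deposited scaling. Got1, the cytosolic aspartate aminotransferase, was at 8.41 and 8.69 against 5.99 to 7.72 (1.62, SE 0.68). Asns, the asparagine synthetase, differed by 0.61 and Psat1, of serine synthesis, by -0.18, neither apart. Among 11 amino acid transporters, 5 were apart and higher (45.5%) and 0 lower (median 0.93, or 0.53 without replicate 4). Slc7a5, the large neutral amino acid carrier, was at 9.83 and 9.60, and replicates 2 to 4 ran from 5.19 (median 8.53) to 8.76. Its 2.17 (SE 1.68) became 1.09 without replicate 4, where both low values lay. Slc6a9, a glycine transporter, was at 6.73 and 6.08 against 4.16 to 4.82 (1.83, SE 0.18). Of 19 cytosolic aminoacyl-tRNA synthetases, 3 were higher (Vars 1.71, SE 0.65; Cars 1.16; Aars 1.07) and 2 lower (Eprs -1.59, SE 0.29; Lars -1.07), shares of 15.8% and 10.5% beside 15.9% and 15.5% of all genes. Their median of 0.14 was 0.35 without replicate 2, 0.21 without replicate 3 and 0.01 without replicate 4. Without replicate 4, Vars stood at 1.38, Cars at 0.76 and Aars at 0.91.

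NRF2 targets and antioxidant enzymes had 11 of 29 tested members apart and higher (37.9%) and 1 lower (3.45%), beside 15.9% and 15.5% of all genes. The median of 0.70 was 0.11 on the deposited scaling and 1.16 with the 75th percentile. Sqstm1, an autophagy receptor that binds KEAP1, was at 11.55 and 11.27 against 8.85 to 10.28 (median 9.60), a difference of 1.80 (SE 0.39). Gsr, the glutathione reductase, was at 8.88 and 8.59 against 6.28 to 7.63 (1.58, SE 0.40). Both stood clear of replicates 2 to 4. Gclm, the modifier subunit of glutathione synthesis, differed by 1.5 (SE 0.51), but its probe sets ran from -0.74 to that value. Srxn1 (1.39), Osgin1 (1.28), Blvrb (1.48) and Keap1 (1.19) were also apart and higher. Other textbook targets were not apart, with Nqo1 at 0.39 and Txnrd1 at -0.02, and Ugdh lay lower at -1.45.

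Chaperones lay on both sides, in shares near those of all genes (15.9% higher and 15.5% lower). Of 15 heat shock proteins 3 were apart and higher and 3 lower (20% each), with a median of -0.42 that turned to 0.21 after scaling to the 75th percentile. Hspb1, a small heat shock protein, was at 8.61 and 8.24 against 5.64 to 7.06 (2.24, SE 0.52). Hsp90aa1, an HSP90, was at 8.61 and 8.54 against 10.26 to 10.94 (-2.15, SE 0.21), and Dnaja1, a DNAJ co-chaperone, lay lower by a difference of -2.0 (SE 0.19). Of the 21 genes of the endoplasmic reticulum list 5 were higher (23.8%) and 3 lower (14.3%), with a median of 0.04 that was 0.14 without replicate 3. Sdf2l1 (2.43, SE 0.54) and Herpud1 (1.80, SE 0.41), both targets of the unfolded protein response, were higher, while Hsp90b1 (-2.12, SE 0.22) and Canx (-1.75, SE 0.15), chaperones of the lumen and its membrane, were lower. Hspa5, the main chaperone of the response, was not apart at -0.66.

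Of 28 tested AP-1 and EGR immediate early factors and their companions, 10 were apart and higher (35.7%) and 2 lower (7.14%). The shares over all genes were 15.9% and 15.5%. The list's median was 0.87 (-0.13 on the deposited scaling). Its members had a median span of 4.66 kb, beside 23.0 kb for all genes. Of all tested genes of up to 9.79 kb, 24.6% were higher and 4.59% lower. The part of span in the list's shares was not tested. Jund, an AP-1 subunit, was at 10.59 and 10.29 against 7.66 to 8.62 (median 8.45), a difference of 2.08 (SE 0.23). Dusp1, a phosphatase that turns off MAP kinases, was at 9.70 and 9.68 against 7.25 to 8.13 (2.02, SE 0.23). Maff, a small MAF protein, was at 7.01 and 6.22 with at most 4.69 elsewhere and 3 of 6 arrays at the floor (2.42, SE 0.40). No array of replicates 2 to 4 reached replicate 1 in these genes. Other members lay on both sides, and over the list 21 lay above 0 and 7 below. Fos stood at -0.53, Egr1 at -0.67 and Egr2 at -0.85, none apart. Jun (0.88), Fosl1 (1.14) and Junb (1.43) lay above 0 and were not apart either. Nr4a1 (1.08), Ier2 (1.07) and Zfp36 (1.14) were apart and higher, and Klf10 (-1.52) and Klf6 (-1.15) apart and lower.

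Around Cops2 and Uba3, 10 of 28 tested genes of the COP9 signalosome and neddylation were apart and lower (35.7%, beside 15.5% of all genes). None were apart and higher, beside 15.9% of all genes. The median was -0.30 (-1.06 on the deposited scaling, -0.01 with the 75th percentile). The members apart were spread over the steps. Nae1 (-1.79), partner of Uba3 in the E1, was lower, as were 5 cullins, the scaffolds that carry NEDD8. Cul4b was at 5.65 and 6.11 against 7.38 to 8.71 (-2.20, SE 0.47), followed by Cul3 (-1.88, SE 0.37), Cul5 (-1.78), Cul1 (-1.31) and Cul2 (-1.10). For Cul3 the probe sets ran from -1.88 to 0.18. The co-E3 genes Dcun1d1 (-1.29) and Dcun1d4 (-1.09) completed the set. Among the other signalosome subunits none was apart, from -0.63 for Cops5, the catalytic subunit, to 0.93 for Gps1, and Nedd8 stood at 0.06. The 10 lower members spanned a median of 49.1 kb of genome and the other 18 a median of 26.9 kb.

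Among proliferation and RNA genes, most members lay lower. Of 28 cell cycle and replication genes 14 were apart and lower (50%, beside 15.5% of all genes) and 1, E2f1 (1.20), higher. The median was -1.28, and 27 lay below 0. Rrm2, a subunit of ribonucleotide reductase, was at 4.56 and 5.19 against 6.59 to 9.71 (median 7.95), a difference of -3.08 (SE 0.26). Replicate 4 ran from 6.59 at 8 h to 9.71 at 12 h, a swing that this SE does not carry. Another probe set of Rrm2 gave -0.48. Mki67, a proliferation marker, lay at the floor and at 4.34 against 4.86 to 7.91 (-2.34, SE 0.53). Top2a, the mitotic topoisomerase, differed by -2.35 (SE 0.55), or by -0.71 in another probe set. Birc5, of the chromosomal passenger complex, was at the floor in both replicate 1 arrays, so its -2.38 depends on the floor. For splicing and RNA processing, a list that holds genes already seen to be low in earlier results, 20 of 40 (50%) were apart and lower. None were apart and higher (median -1.02, and 37 below 0). Rbm25, a splicing regulator, was at 3.84 and 5.36 against 6.48 to 8.05 (-2.77, SE 0.48). Luc7l3, a U1-associated protein, was at 6.33 and 6.43 against 8.42 to 9.46 (-2.47, SE 0.31), and Hnrnph1 was lower by a difference of -2.26 (SE 0.33). In each of these genes the groups stood apart.

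Cytosolic ribosomal proteins had 1 of 43 higher and 1 lower (median 0.05, or -0.02 without replicate 4), namely Rpl27a (1.97, SE 0.33) and Rpl7 (-1.09, SE 0.23). The proteasome had 3 of 37 higher and 2 lower (median 0.08, or -0.01 without replicate 4). Psmd3 stood at 1.22 (0.99 without replicate 4) and Psmc6 at -1.51. The mitochondrial respiratory chain had 2 of 56 higher and 0 lower (median 0.33, or 0.18 without replicate 2). Those were Cox7a1 (2.12, SE 0.40), a heart and fat form of a cytochrome oxidase subunit, and Uqcrc1 (1.11, SE 0.41, or 0.92 without replicate 4). At 8 h Cox7a1 was at 8.52 in replicate 1 and at 8.38 in replicate 4, which stood at 4.94 at 12 h. Under the deposited scaling the ribosomal, proteasome and respiratory medians were -0.24, -0.47 and -0.01, each above the -0.53 of all genes. Shares higher and lower were 2.33% and 2.33%, 8.11% and 5.41%, and 3.57% and 0% in that order. All genes gave 15.9% and 15.5%.

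Of 33 tested matrix genes 10 were apart and lower (30.3%, beside 15.5% of all genes) and 0 higher. The median of -0.63 was -0.41 without replicate 2. Postn, which encodes the matrix protein periostin, was at 7.0 and 8.18 against 10.44 to 11.78 (median 10.92), a difference of -3.46 (SE 0.58). Adamts5, an aggrecan-cleaving protease, was at 3.84 and 5.74 against 7.50 to 9.03 (-3.41, SE 0.31). Vcan, the proteoglycan versican, differed by -3.23 (SE 0.85) but by -0.32 in another probe set, and Lum, the proteoglycan lumican, by -3.19 (SE 0.64). The major collagens were not apart, with Col1a1 at -0.45 and Col3a1 at -0.48. Of 14 preadipocyte markers 4 were lower (28.6%) and 0 higher (median -0.51, or -0.11 with no filter on dim genes). Zfp423 (1.0), Twist2 (0.67), Twist1 (0.45), Gata2 (0.33) and Sox9 (0.16) lay above 0, none apart. Pdgfra, a receptor of adipocyte progenitors, was at 7.34 and 8.40 against 9.51 to 10.96 (-2.37, SE 0.57, or -0.72 in another probe set). Prrx1 (-3.17, SE 0.70, or -0.91 in another probe set), Acta2 (-2.19, SE 0.95) and Dlk1 (-1.42, SE 0.48), the last a blocker of adipogenesis, followed. The groups did not overlap in these 4.

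Of 22 tested adipocyte genes 8 were apart and higher (36.4%) and 2 lower (9.09%), beside 15.9% and 15.5% of all genes. The median was 0.59 (0.21 on the deposited scaling). Cavin1, a coat protein of caveolae, was at 11.79 and 11.26 against 9.34 to 10.28 (1.82, SE 0.26), although its probe sets ran from 0.40 to 2.16. Lipe, the hormone-sensitive lipase, was at 11.25 and 11.31 against 8.22 to 10.48 (1.67, SE 0.67). Agpat2, of triglyceride synthesis, differed by 1.56 (SE 0.61) and Slc2a4, the insulin-regulated glucose carrier, by 1.44 (SE 0.43). Other adipocyte markers were mixed. Cebpa (1.06) and Cidec (1.03) were apart and higher, while Adipoq (0.06), Fabp4 (0.07), Retn (0.08), Pparg (-0.38) and Lpl (-0.48) were not apart. Caveolin Cav1 (-1.06) and the fatty acid receptor Cd36 (-1.12) were lower. Lipogenesis had 3 of 14 higher (21.4%) and 0 lower (median 0.33, or -0.05 without replicate 2), led by Acacb (1.47, SE 0.58) and Srebf1 (1.34, SE 0.20). Fatty acid oxidation and PPAR targets had 4 of 17 higher (23.5%) and 0 lower (median 0.53, -0.11 on the deposited scaling). Acot2, a mitochondrial thioesterase, was at 9.26 and 8.47 against 5.46 to 7.79 (2.73, SE 0.46), and Angptl4 and Plin2 differed by 1.47 (SE 0.40) and 1.30 (SE 0.22). Cholesterol genes had 3 of 21 higher (14.3%), among them Srebf2 (1.52, SE 0.64), and 2 lower (9.52%), Stard4 (-1.90, SE 0.60) and Hmgcs1 (-1.60, SE 0.57), no more than the 15.9% and 15.5% of all genes. Their median of 0.18 was -0.13 without replicate 2, 0.29 without replicate 3 and 0.57 without replicate 4.

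**Figure D4:**
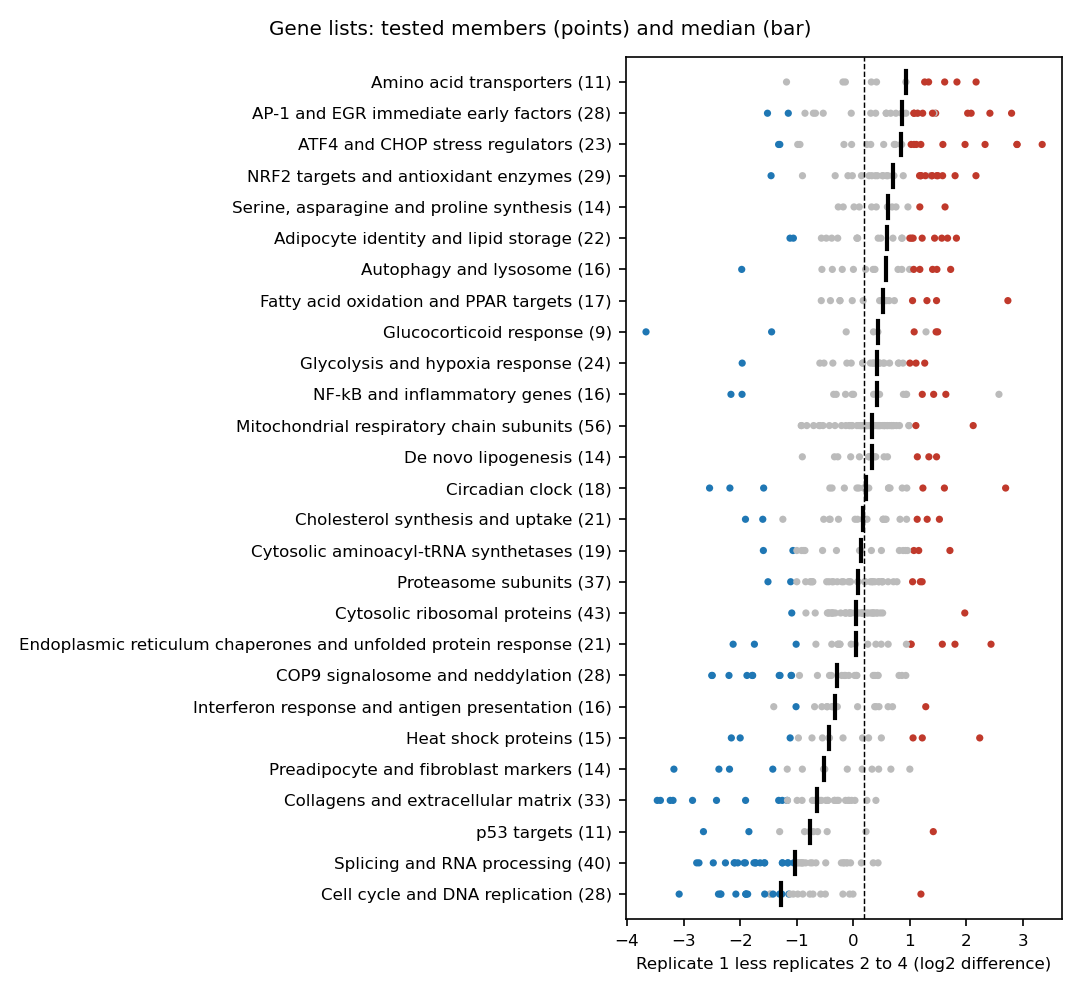
Each row is a gene list with at least 9 tested members (number in brackets); points are members by their log2 difference, red for apart and higher, blue for apart and lower, grey for neither, and black bars are medians. The dashed line is the median of all tested genes, 0.18; medians run from -1.28 for cell cycle genes to 0.93 for amino acid transporters.

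Regulators of hormone response and rhythm included large single differences. Nr3c1, the glucocorticoid receptor, was at the floor at 8 h and at 5.52 at 12 h in replicate 1, against 7.73 to 9.05 (median 8.23), a difference of -3.66 (SE 0.50). Its list had 3 of 9 members higher (33.3%) and 2 lower (22.2%), beside 15.9% and 15.5% of all genes. The list's median was 0.44, or 0.74, 0.76 and 0.04 without replicates 2, 3 and 4. Of the receptor's targets, Mt2, a metallothionein, stood at 1.49 (SE 1.19) and Tsc22d3 at 1.46 (SE 1.40), and these became 0.74 and 0.60 without replicate 4. Klf9 was lower at -1.44 (SE 0.20) in its brightest probe set and at 0.38 in another. Of 18 clock genes 3 were higher and 3 lower (16.7% each, near the 15.9% and 15.5% of all genes; median 0.23). Nr1d1, the repressor REV-ERB alpha, was at 6.76 and 7.0 with 4 of 6 other arrays at the floor and none above 4.96 (2.69, SE 0.56). Clock (-2.54, SE 0.42) and Rora (-2.18, SE 0.66), activators of the loop, were lower, as was Nr1d2 (-1.58), a paralog of Nr1d1. Other probe sets gave -0.89 for Clock and -0.26 for Rora. Arntl, another activator, was not apart at -0.41.

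NF-kB and inflammatory genes had 3 of 16 higher (18.8%), led by Relb (1.64, SE 0.54), beside 15.9% of all genes. Lower were 2 (12.5%, beside 15.5% of all genes), Vcam1 and Birc3 (-2.16, SE 1.07, and -1.97, SE 0.53). The probe sets of Vcam1 ran from -2.16 to 0.49, and the list's median of 0.41 became -0.02 without replicate 3 and 0.74 without replicate 4. Interferon genes had 1 of 16 on each side (6.25%), Irf7 (1.28, SE 0.33) and Ifit3 (-1.01, SE 0.63, or -0.61 without replicate 4). Glycolysis and hypoxia genes had 3 of 24 higher (12.5%), Pfkl (1.26), Pfkp (1.11) and Pkm (1.0). Without replicate 4 these stood at 0.61, 1.18 and 0.37. Pkm at 8 h was at 11.70 in replicate 1 and 11.69 in replicate 2. Lower was 1 (4.17%), the factor Hif1a (-1.96, SE 0.31). Both shares lay below the 15.9% and 15.5% of all genes. The list's median of 0.41 was 0.17 without replicate 4. Of 11 p53 targets 2 were lower (18.2%), Ccng1 (-2.65, SE 0.42) and Trp53inp1 (-1.84, SE 0.54, or -0.03 in another probe set). Higher was 1 (9.09%), the cell cycle inhibitor Cdkn1a (1.41, SE 0.88, or 0.91 without replicate 4). Autophagy and lysosome genes had 5 of 16 higher (31.25%), among them the regulator Tfeb (1.72, SE 0.46) and Gabarapl1 (1.48, SE 0.21). Lower was 1 (6.25%), Lamp2 (-1.97, SE 0.24). Of the markers of other cells, Adgre1, a macrophage receptor, was apart and higher (1.94, SE 0.32), as were Des (2.75, SE 0.74) and Cidea (1.94, SE 0.50). At 8 h Cidea was at 5.89 in replicate 1 and at 5.71 in replicate 4, and the other 5 arrays of replicates 2 to 4 lay at the floor. The endothelial Cdh5 was not apart (0.76, SE 0.04). All 6 arrays of replicates 2 to 4 lay at the floor for Cdh5, so that SE does not measure their spread.

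The 12 genes furthest above 0 include Trib3, Atf3 and Chac1, described above. Ghrh, which encodes growth hormone releasing hormone, was at 10.11 and 8.93 against 3.84 to 5.57 (median 4.27), a difference of 5.05 (SE 0.69). Cox8b, a cytochrome oxidase subunit of heart and brown fat, was at 9.63 and 9.98, but replicates 2 to 4 varied from 3.84 to 9.62. Its highest value, in replicate 4 at 8 h, came close to replicate 1, so the 4.42 had an SE of 1.33. Acsf2, an acyl-CoA synthetase, differed by 3.84 (SE 1.49) with the others spread from 3.84 to 7.23. Cdsn, corneodesmosin of skin, was more even, at 9.23 and 8.64 against 4.13 to 5.96 (3.60, SE 0.52). Itih4 (3.21, SE 1.76) and Maz (2.97, SE 1.65) had SEs of more than 1.5, while Slc45a3 (3.19, SE 0.81), Trarg1 (3.13, SE 0.65) and Hsd17b14 (2.86, SE 0.37) had smaller ones.

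At the low end, Car3, the carbonic anhydrase of fat and muscle, was at 3.84 and 5.70 against 7.80 to 11.40 (median 8.97), a difference of -4.29 (SE 1.07). Fmr1, an RNA-binding protein, differed by -3.77 (SE 0.70), although another probe set gave 0.95. Top2b, a DNA topoisomerase, was at 3.84 and 5.93 against 8.16 to 9.53 (-3.65, SE 0.41). Ireb2, an iron-responsive regulator, lay at the floor in both replicate 1 arrays and at 6.87 to 7.83 elsewhere (-3.39, SE 0.40). Fam126b, Haus3, Sesn3, Ifi202b and Smc4 ranged from -3.59 to -3.40. All 12 of the lowest genes stood clear of replicates 2 to 4, by the rule that chose them, and 9 of the 12 had at least 1 replicate 1 array at the floor, so those sizes depend on it.

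Over the 8 LA arrays less each time mean, the gene whose pattern was most like that of Atf3 was Chka, a choline kinase, at a Pearson correlation of 0.999. It was at 7.38 and 7.36 against 5.49 to 5.96, a difference of 1.60 (SE 0.28), but its probe sets ran from -0.19 to 1.60. Fmo5, Pde6g, Drc3, 1300017J02Rik, Enho and Reg2 followed with 5 of the 6 other arrays at the floor, and Tmem201 (1.49, SE 0.24) with 0. Most like Cops2 was Eif2s2, the beta subunit of eIF2, at 0.998. It was at 9.13 and 9.22 against 10.90 to 11.16 (-1.83, SE 0.18). Nab1, Matr3, Zfp445, Top1, Oip5os1, Rap1a and Kdm5a came next, with correlations of 0.994 to 0.996 and differences from -2.65 to -1.68. Replicate 1 lies far from the rest in all these genes, and a single gap can set such a correlation.

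Genes apart in the 2 directions differed in how much genome they span. Span did not enter the choice of replicate 1, but the genes compared come from the contrast that chose it. The span from start to end in the annotation had a median of 14.2 kb for the 1738 genes higher in replicate 1, 46.2 kb for 1682 of the 1688 lower, and 23.0 kb for 10896 of all 10916. Genes were also cut into 4 span groups of 2724 each. In the shortest group, up to 9.79 kb, 24.6% were higher and 4.59% lower. In the longest group, from 53.1 kb, 8.92% were higher and 27.6% lower. The median difference went from 0.54 in the shortest group through 0.32 and -0.01 to -0.33 in the longest. With genes cut into 3 equal groups by brightness, the order was the same within each: among the brightest, 4.91% of the shortest and 30.5% of the longest genes were lower, among the middle group 5.71% and 33.2%, and among the dimmest 3.38% and 19.5%. Replicate 4 against replicate 3 ran the other way, with medians of 30.8 kb for genes higher and 16.4 kb for genes lower in replicate 4. For replicate 2 against 3 and 4 they were 21.9 and 25.05 kb. The gene lists above were not matched for span. NRF2 targets and adipocyte genes had median spans of 16.7 and 11.4 kb, and amino acid transporters 30.5 kb. Cytosolic ribosomal proteins had 3.35 kb, with 2.33% higher and 2.33% lower.

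The order of spans held under the other settings run. Without replicate 4 the medians were 14.4 kb for genes higher and 46.1 kb for genes lower. At 8 h alone they were 15.5 and 45.5 kb, at 12 h alone 14.0 and 44.0 kb. On the deposited scaling, with 157 genes higher, they were 12.7 and 38.3 kb, with the 75th percentile 13.3 and 48.0 kb, and with the mean of all probe sets 12.3 and 39.1 kb. Promoter composition differed less, with a median of 60.4% G and C for genes higher, 62.4% for genes lower and 60% for all with a promoter. Gene spans are those of RefSeq on GRCm38.p6, and the transcripts measured may span less. Whether array preparation, RNA or the cells carried the relation to span was not tested.

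**Figure D5:**
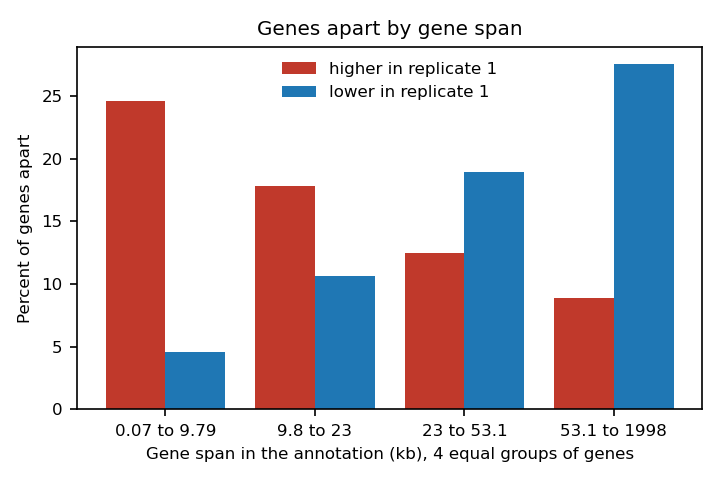
Bars give the percent of genes apart and higher (red) and apart and lower (blue) in replicate 1, in 4 equal groups of tested genes by span in the annotation (kb, 2724 genes each). From the shortest to the longest group the higher share goes from 24.6% to 8.92% and the lower share from 4.59% to 27.6%.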

How the data were processed

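The authors' deposited table gives linear probe set intensities, array by array, and since 22.5% of them are 0 or negative, background had been taken off. The software, scaling and array build behind these deposited intensities are not given in the sources used here. The authors' deposited ratio table was not used.

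The table lists 45101 probe sets. Its 64 array controls were dropped, as were 932 with several gene symbols and 9160 with none, and 34945 stayed in use. Values were quantile normalized over 10 arrays, raised to a floor of 14.3 (the size of the 2nd percentile, chosen after the range was seen) and put on the log2 scale. Each of 18193 genes took its brightest probe set, and the dimmest 40% of genes were set aside, which left 10916 to be tested. Of their values, 11.1% lay at the floor. SEs and the interaction test came from limma 3.58.1 in R 4.3.3, with a variance trend. The test was two-sided, with p-values adjusted by Benjamini-Hochberg across 10916 genes and a limit of 0.05. The fits were also run on simulated data. Those values were not held at a floor, so that run does not bear on calls made at the floor.

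The members, markers and lists were chosen with earlier results of these data known. The 146 genes named were the markers, the 12 genes apart with the largest difference in each direction, up to 4 members of each list, the 5 smallest p in each direction of the interaction and the 8 most like Atf3 and Cops2. Other list members are given to describe the lists and were chosen after their values were seen. Arrays of the same number deviated together after time means were removed (correlations of 0.855, 0.779, 0.503 and 0.553 for numbers 1 to 4), so a second fit took the number as a replicate block. Promoters and spans came from RefSeq on GRCm38.p6; 8902 genes tested had a promoter and 10896 a span. Alternatives were other scalings, floors, filters and probe set rules, the block, and each replicate left out.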

Additional observations from a re-analysis of the deposited data

Results flagged for a closer look

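Single arrays lay far from the other 3 of their group by Dixon's ratio, a rule that chance meets in about 1 in 20 groups. At 8 h the replicate 1 array was the one apart for Atf3 (log2 7.194), Egr3 (6.747), Cops2 (6.829) and Uba3 (6.509), and for the 75th percentile of intensity (26.45). At 12 h it was the one apart for Atf3 (6.483), Egr3 (6.632), Cops2 (6.991) and Uba3 (6.851). These genes were chosen for that gap, so the pattern adds nothing to it. Replicate 4 at 12 h stood apart in the control ratios of RNA quality, with an actin 3′ over 5′ ratio of 5.674 and a Gapdh ratio of 1.416.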

How the results depend on the processing

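Counts of genes apart were 1738 higher and 1688 lower. They became 157 and 3511 on the deposited scaling, 112 and 464 at a difference of at least 2, 1135 higher with the lowest 60% of genes left out, and 1002 lower with the mean of all probe sets. Leaving out each of replicates 2 to 4 gave 1591 to 1969 higher and 1573 to 1872 lower. On the deposited scaling 16 of 29 list medians went from above to below 0, with values from -0.707 to -0.014, and 14 of them lay above the -0.53 of all genes there. Among these were ATF4 and CHOP regulators (-0.031), serine, asparagine and proline synthesis (-0.217), AP-1 and EGR factors (-0.131) and fatty acid oxidation (-0.108). Of 76 marker values under alternatives 60 moved by less than the spread between replicates, and 0 changed sign.

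The interaction count of 400 was 291 with the replicate block, 998 with a floor 2 times as high, 133 without the variance trend, 1596 with no filter, 245 with the 8 LA arrays scaled alone, and 349 to 404 when a replicate was left out. It was 0 with a floor of 0.5 times the size, with the lowest 60% left out, and on the deposited scaling (364, 50 and 176 at an unadjusted p under 0.05). It was also 0 in fits added after seeing the data: with the replicate block and a replicate left out (860 to 1365 at that p), and among genes with no array, or fewer than 3 arrays, of replicates 2 to 4 at the floor (88 and 129, or 299 and 362 with the block). The interaction calls therefore depend on the floor. Signal near the floor limits the sizes of dim genes, and an SE resting on 3 units limits all of them.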
